A study of Mus musculus with 24 samples.

Results

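The numbered CD surface antigen genes are those whose platform symbol is CD followed by a number and at most 1 further letter. Of 60 such genes on the array, 7 (CD28, CD38, CD44, CD48, CD63, CD68 and CD180) were set aside, which left 53 of the 14884 genes with 1 symbol. The members were set by symbol and the 7 left out by name, with earlier results of these data known. Each member was read from 1 probe set, that with the highest mean over the 24 arrays. RNA came from plasmacytomas that the human myeloma line MM.1S had formed under the skin of CB17-SCID mice, which lack their own T and B cells. All groups therefore share 1 implanted line, injected with Matrigel. The control group was labelled as untreated, and the protocol gives it vehicle (PBS). The 7 treated groups received filanesib (ARRY-520, F, 10 mg/kg), dexamethasone (D, 0.5 mg/kg), pomalidomide (P, 8 mg/kg), each pair (FD, FP and PD) or all 3 drugs (FPD), by intraperitoneal injection over 2 days, with 3 arrays per group. Filanesib inhibits the spindle motor KIF11, pomalidomide directs the transcription factors IKZF1 and IKZF3 to degradation through cereblon, and dexamethasone is a glucocorticoid. Whether the 3 arrays of a group are 3 animals is not stated in the labels, and p-values then cover only the spread among arrays, which may be technical.

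CD numbers are given to leukocyte surface molecules that groups of antibodies recognise, so a CD number says where a molecule was found and not what it does. The set holds tetraspanins, which organise other proteins in the membrane, receptors and ligands of the immunoglobulin and TNF families, lipid-presenting CD1 molecules and lectin-like or scavenger receptors. Plasma cells lose many B cell antigens as they mature, and antibodies to several CD molecules are used to identify or to treat myeloma.

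The labelled tumour was checked against plasma cell markers. On the log2 scale of the array, SDC1 had a mean level of 10.1, XBP1 of 10.7, MZB1 of 11.1 and SLAMF7 of 9.25 over 24 arrays, whereas POU2AF1 lay at 4.92. Of these and IRF4, the 6 markers measured among 10 listed, IRF4 fell with pomalidomide on average, by 0.54 ± 0.11 (limma adjusted p = 0.0056), and the other 5 did not pass. Markers of host cells lay low for the most part: the macrophage markers CSF1R, MSR1, LYZ and MARCO reached at most 4.91 on any array, the fibroblast markers DCN and LUM at most 2.61 and the pericyte marker RGS5 at most 4.25. The probes are human, so mouse cells register only by cross-hybridisation. Exceptions with a mean above 5 were LAT (8.04), NCR1 (5.44) and ZAP70 (5.02) among T and NK cell markers and ESAM (7.16) among endothelial ones. The endothelial marker CLDN5 had a mean of 4.64 and reached at most 5.15. In bulk RNA, fewer cells of a type and less RNA per cell cannot be told apart. The 3 arrays of pomalidomide alone stood apart: the SD of their deviations from the group mean was 0.212, 0.212 and 0.247 over the members and 0.232, 0.193 and 0.288 over all genes. The other 21 arrays lay between 0.126 and 0.208 over the members and between 0.127 and 0.180 over all genes. The called results of members that rest on these arrays are therefore also given without replicates 1 and 3. So are the counts over all members for pomalidomide and its drug pairs. This omission leaves 1 array in that group, taken to vary like the other groups. The markers IRF4 and RGS5 were not refitted in this way.

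The mean level over 24 arrays was under 5 for 36 of 53 members (67.9%, against 53.8% of all genes) and 5 or more for 17. Means below 3.65, the lowest median of any array over all its probe sets, were found for 16 members (30.2%, against 29.4% of all genes). Probe sets differ in brightness for equal RNA, so the levels of different genes are not ranked. The 17 brighter members were CD5L, CD7, CD9, CD37, CD47, CD52, CD53, CD58, CD70, CD82, CD86, CD99, CD109, CD151, CD276, CD300A and CD320. Antigens of B cells that lay below every array median included CD22, CD24, CD69, CD72 and CD84, and among myeloid antigens CD14, CD36, CD101, CD163 and CD209 did. The spread of the 8 group means had a median of 0.35 over the members and 0.33 over all genes. It was widest for CD109 (1.27, from 4.81 with dexamethasone to 6.08 with filanesib plus pomalidomide), CD300A (0.84), CD9 (0.82) and CD99 (0.79). The map of all members by array shows these rows against an otherwise pale field.

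**Figure D1:**
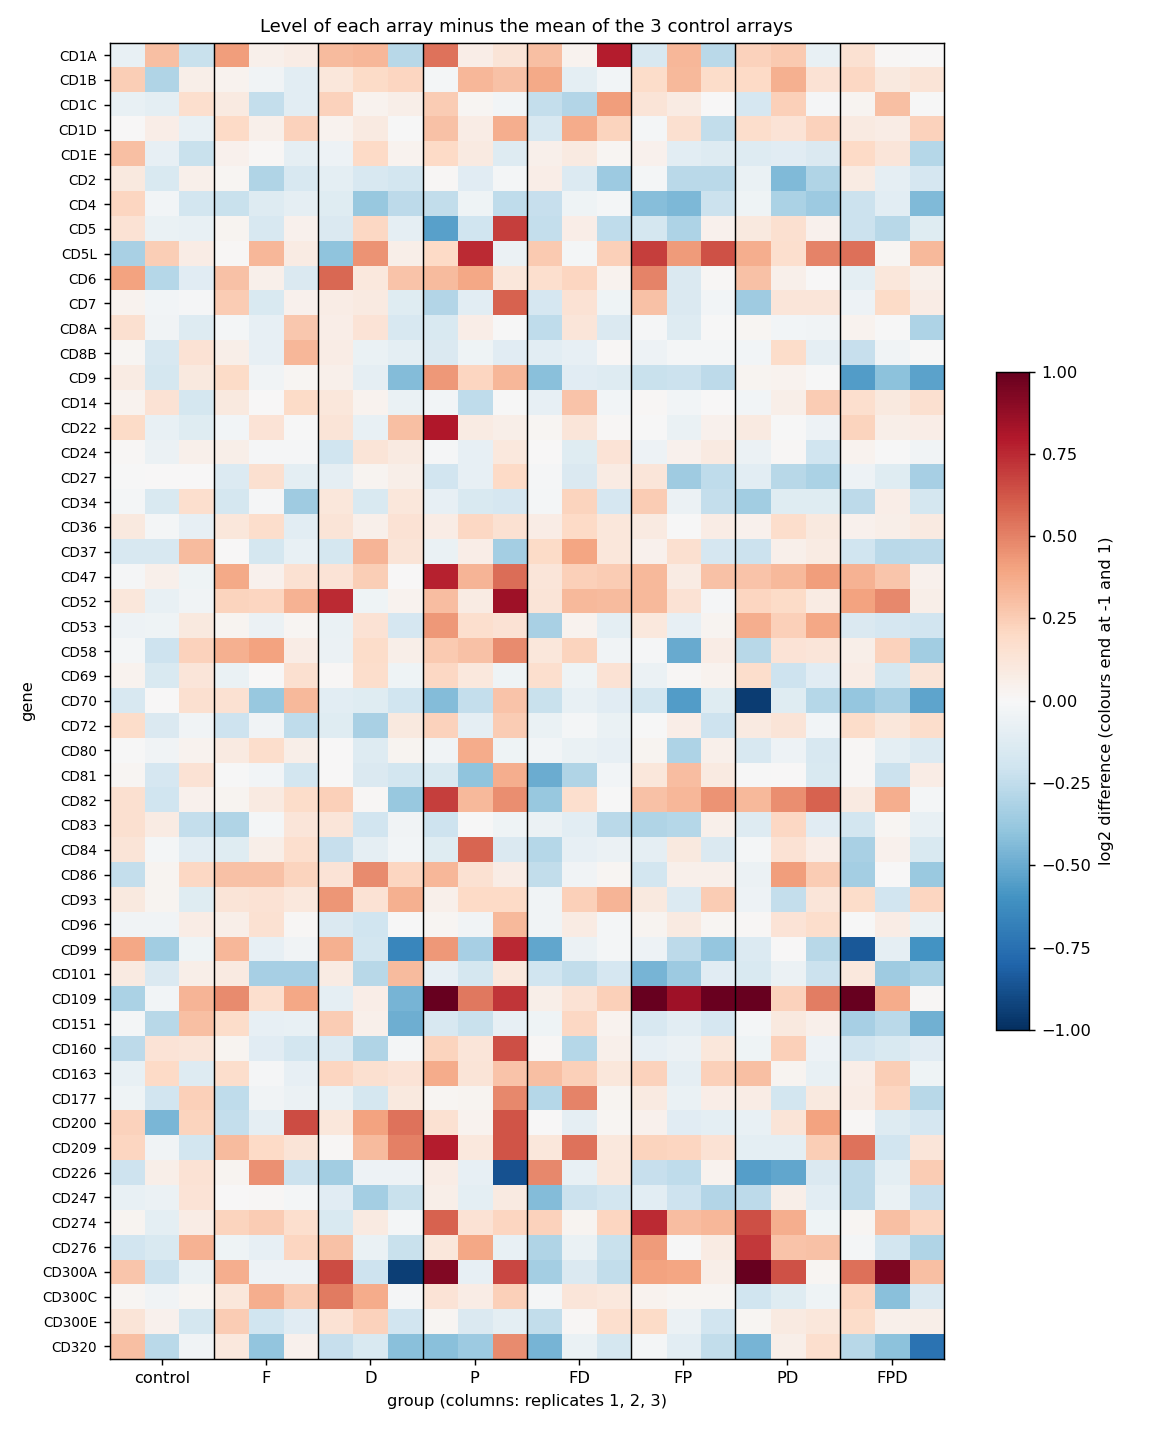
Log2 level of each of the 53 members (rows) on each of the 24 arrays (columns, 3 per group), minus the mean of the 3 control arrays. Red is higher and blue lower, and colours end at -1 and 1. CD109 is red in most arrays with pomalidomide, CD9 is blue in FPD, and most other rows stay pale.

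Pomalidomide had the largest number of changed members. In its average effect (the mean of the 4 differences with and without the drug, 12 arrays against 12), 4 members rose and none fell at an adjusted p under 0.05, over all 14884 genes tested: CD109, CD82, CD300A and CD47. This is 7.55% of the members. Over all genes 4.86% were called, 2.21% of them higher and 2.65% lower, each as a share of all genes. At an unadjusted p under 0.05, 10 members were higher and 7 lower, 32.1% of the members against 17.3% of all genes (7.38% higher and 9.9% lower). The median change was -0.01 over the members and -0.01 over all genes, with 26 members above 0 and 27 below. Without replicates 1 and 3 of pomalidomide alone 3 members were called (CD109, CD82 and CD5L), and 13 had an unadjusted p under 0.05 in limma, 10 higher and 3 lower (24.5%, against 17.7% of all genes). Without replicate 3 alone 6 members were called, and 2 without replicate 3 of filanesib, replicate 1 of filanesib plus pomalidomide, replicate 1 of pomalidomide plus dexamethasone or replicate 2 of the triple combination.

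CD109, a glycolipid-anchored surface protein known to bind TGF-beta and restrain its signalling (probe set 17010354), had the largest change. It lay at 4.66, 4.95 and 5.31 in control and at 6.52, 5.50 and 5.69 with pomalidomide alone. With dexamethasone it lay at 4.88, 5.04 and 4.51, and with pomalidomide plus dexamethasone at 6.38, 5.20 and 5.49. With filanesib it lay at 5.45, 5.14 and 5.36, and with filanesib plus pomalidomide at 6.44, 5.82 and 5.97. In these 3 pairs of groups every array with pomalidomide was above every array without. The groups overlapped where both other drugs were present, at 6.17, 5.35 and 4.99 in the triple combination and 5.03, 5.12 and 5.22 in filanesib plus dexamethasone. On average CD109 rose by 0.74 ± 0.15 (SE, 1.67-fold, limma adjusted p = 0.0030), and without replicates 1 and 3 of pomalidomide alone by 0.64 ± 0.15 (adjusted p = 0.0176). Replicate 1 was the highest of the 3 arrays in each of the 4 groups with pomalidomide. A second, dimmer probe set of CD109 (17020838, mean level 3.91) had an average effect of 0.05 ± 0.08 (unadjusted p = 0.5453). The rise was thus seen by 1 of 2 probe sets, and the mean of both changed by 0.39 ± 0.09 (adjusted p = 0.0155).

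CD82, a tetraspanin described as a suppressor of metastasis (probe set 16724061), was the member with the least overlap. The 12 arrays with pomalidomide lay between 7.06 and 7.77 with a median of 7.43, and the 12 without between 6.70 and 7.32 with a median of 7.11. Of the arrays with the drug, 10 were above all 12 without it. It lay at 7.77, 7.40 and 7.54 with pomalidomide alone against 7.23, 6.88 and 7.12 in control. Beside dexamethasone the arrays were at 7.40, 7.54 and 7.66 against 7.32, 7.09 and 6.70. The average rise was 0.37 ± 0.08 (1.29-fold, limma adjusted p = 0.0056), and 0.33 ± 0.08 without the 2 arrays of pomalidomide alone (adjusted p = 0.0322). The difference was 0.49 with no other drug and 0.50 beside dexamethasone, but 0.26 beside filanesib and 0.22 beside both. The drug pair filanesib by pomalidomide, tested for every gene, was not called for CD82.

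CD300A, an inhibitory receptor for lipids exposed on dying cells (probe set 16837587), had the widest spread within groups of the 53 members (residual SD 0.433). With dexamethasone it lay at 6.19, 5.34 and 4.60, and with pomalidomide plus dexamethasone at 6.69, 6.18 and 5.56. In control it lay at 5.82, 5.33 and 5.48, and with pomalidomide alone at 6.47, 5.46 and 6.21. These groups overlapped. In the triple combination it was at 6.10, 6.48 and 5.84, above all 3 arrays of filanesib plus dexamethasone (5.21, 5.40 and 5.30). The average rise was 0.58 ± 0.15 (1.49-fold, limma adjusted p = 0.0277). It did not pass without replicates 1 and 3 of pomalidomide alone (0.43 ± 0.16, adjusted p = 0.1483). Nor did it pass in 4 omissions of 1 array, replicate 3 of filanesib, replicate 1 of filanesib plus pomalidomide, replicate 1 of pomalidomide plus dexamethasone and replicate 2 of the triple combination (adjusted p up to 0.0618). It also did not pass when every probe set was tested (limma adjusted p = 0.0751). CD300A is known from myeloid and lymphoid cells. Of 4 macrophage markers measured among 10 listed, none passed in this comparison, with a median of -0.02. Their summed level lay at 14.6 to 15.3 in control and 14.2 to 15.8 in the 4 groups with pomalidomide. These markers were dim, with means from 2.67 (LYZ) to 4.37 (CSF1R). The part of macrophages in the values of CD300A was not tested.

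CD47, the ligand that restrains phagocytosis through SIRPA on macrophages (probe set 16957095), was the 1 member called for pomalidomide alone against control. It lay at 9.97, 9.54 and 9.76 against 9.19, 9.25 and 9.16, a rise of 0.56 ± 0.12 (1.47-fold, limma adjusted p = 0.0203). In that comparison 1.98% of all genes were called, 0.504% of them higher as a share of all genes, and 1 of 53 members is 1.89%. The call was lost without control replicates 1 or 3 or replicate 1 of pomalidomide (adjusted p up to 0.0961), and without replicates 1 and 3 of pomalidomide the difference was 0.34 ± 0.15 (adjusted p = 0.5376). The average effect was smaller, 0.21 ± 0.06 (1.15-fold, adjusted p = 0.0444). The difference was 0.21 beside dexamethasone, where the groups did not overlap, but 0.04 beside filanesib and 0.02 beside both. The average effect did not pass when every probe set was tested (limma adjusted p = 0.0705). That averaged call did not survive 18 of the 24 single-array omissions (adjusted p up to 0.0902), with the replicate block (0.0518) and without the 2 arrays (0.15 ± 0.06, adjusted p = 0.1731).

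**Figure D2:**
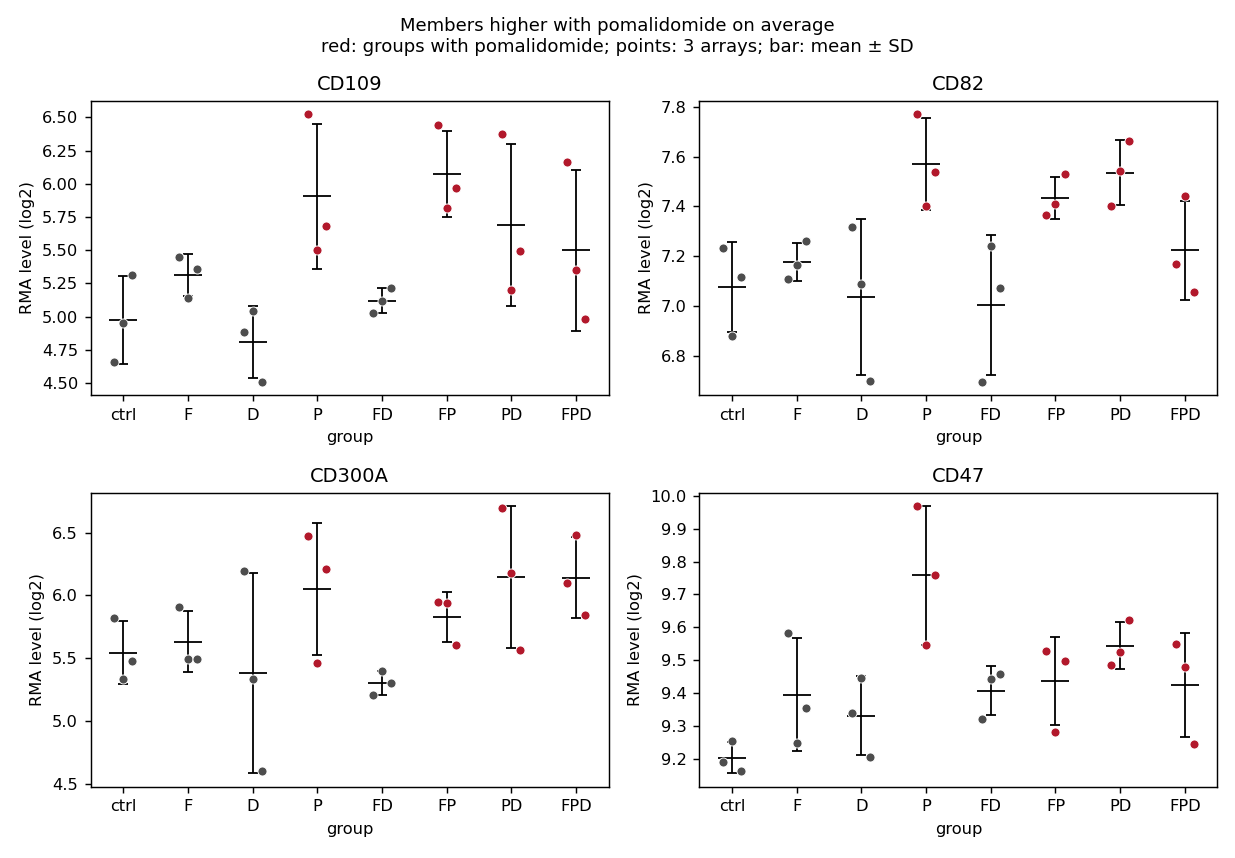
RMA level (log2) of CD109, CD82, CD300A and CD47 in the 8 groups, with a point per array and the mean ± SD of 3 arrays. Groups with pomalidomide are red. CD82 in red lies at 7.06 to 7.77 and in grey at 6.70 to 7.32, while the arrays of CD300A within a group lie far apart.

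Further members had small p for pomalidomide without passing. CD274, the checkpoint ligand PD-L1, had a mean of 4.50 with and 4.27 without the drug, a difference of 0.23 ± 0.08 (limma adjusted p = 0.0836). It passed without replicate 3 of pomalidomide plus dexamethasone (adjusted p = 0.0223). CD5L, a secreted scavenger protein of macrophages that carries a CD symbol without being a numbered surface antigen, differed by 0.30 ± 0.10 (adjusted p = 0.1005). It passed without the 2 arrays of pomalidomide alone. CD70, the TNF family ligand of CD27, was lower at 7.93 against 8.19, a difference of -0.26 ± 0.10 (adjusted p = 0.1478). Its 5 lowest arrays with the drug were below all 12 arrays without it, and it passed without replicate 3 of pomalidomide alone (adjusted p = 0.0457). CD27 itself differed by -0.13 ± 0.06 (adjusted p = 0.2832). CD52, the small glycoprotein bound by alemtuzumab, differed by 0.07 ± 0.09 and CD69, an early activation antigen, by -0.03 ± 0.06, neither of which passed.

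For the average effect of dexamethasone 0 members passed, and 0.0134% of all genes did. The effect was negative for 35 of 53 members, while 49.6% of all genes were positive. Its median was -0.03 over the members and -0.0005 over all genes. With an unadjusted p, limma gave 3 members under 0.05 (5.66%, all lower, against 7.68% of all genes). These were CD9 (-0.25 ± 0.06, adjusted p = 0.3259), the T cell receptor zeta chain CD247 (-0.15 ± 0.05) and CD99, an adhesion glycoprotein (-0.28 ± 0.13, and -0.13 ± 0.13 without replicates 1 and 3 of pomalidomide alone). CD160, a receptor of NK and T cells (-0.14 ± 0.07), and CD109 (-0.29 ± 0.15) came next, with an adjusted p of 0.6611 each.

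**Figure D3:**
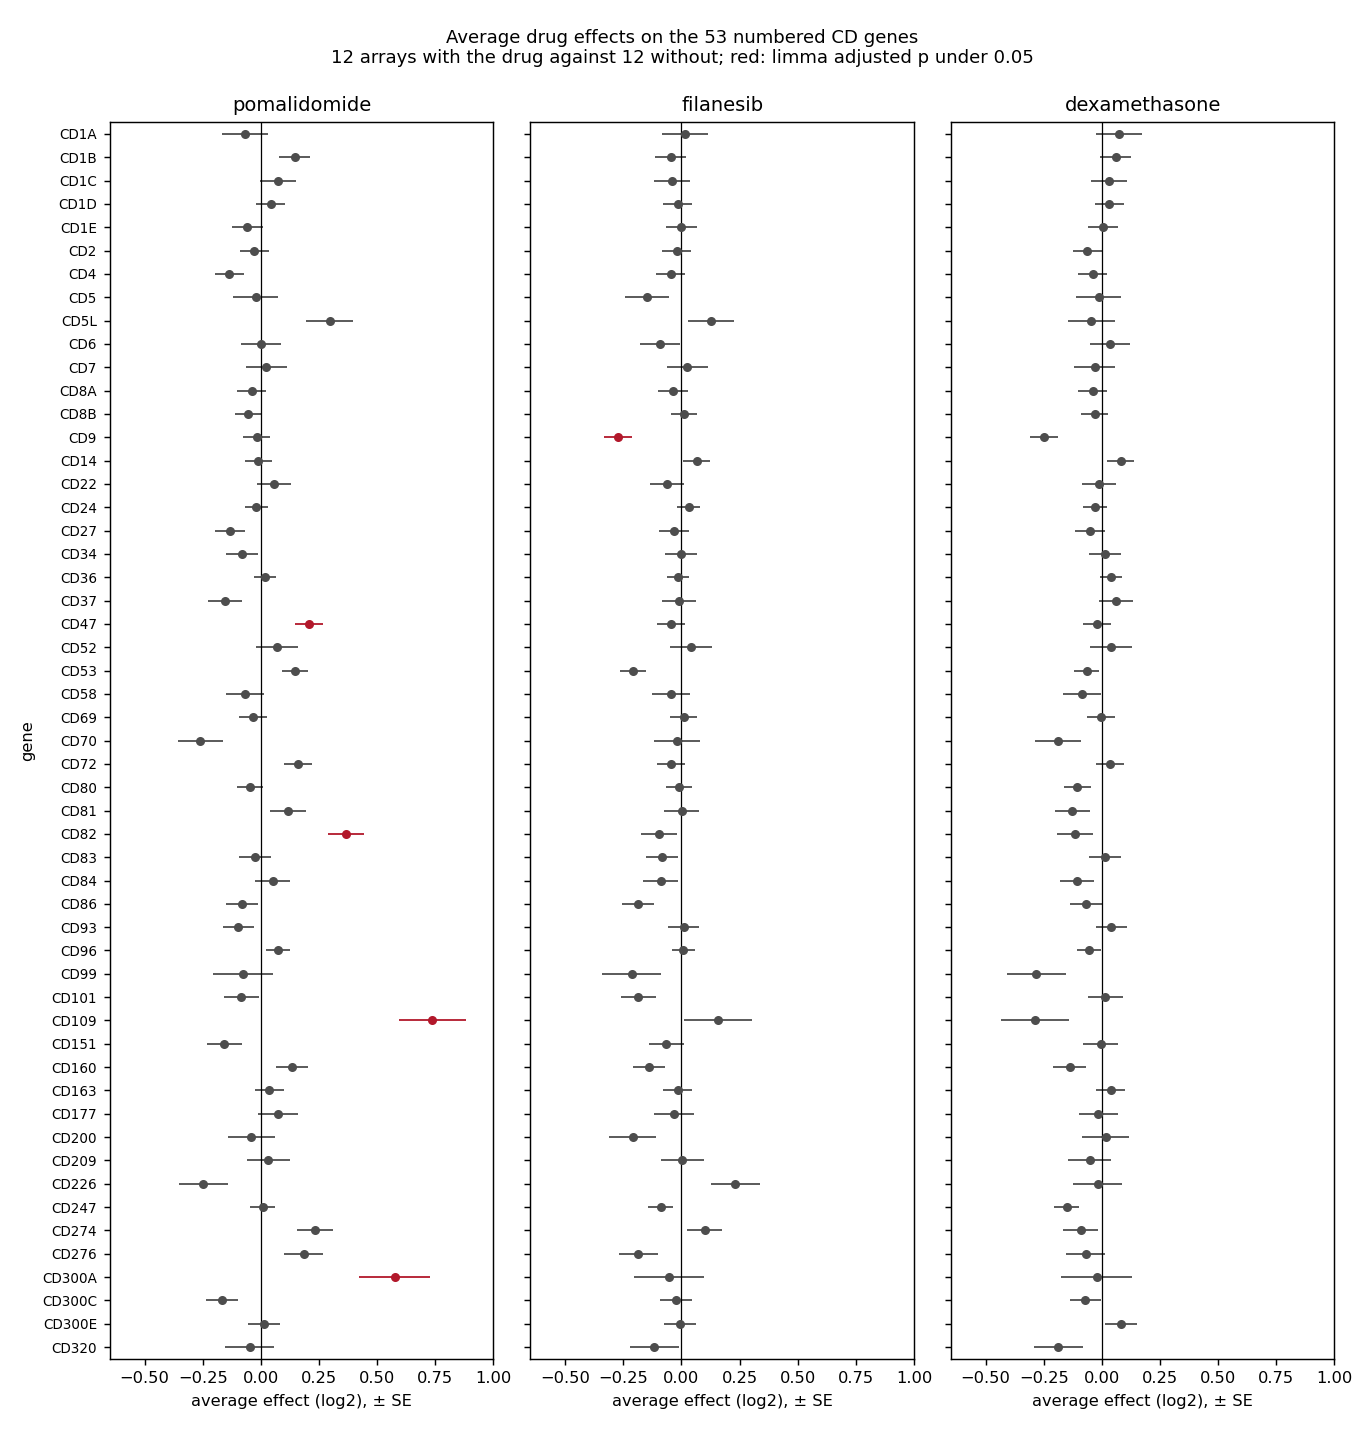
Average effect of each drug on each of the 53 members, as a log2 difference ± SE between 12 arrays with and 12 without the drug. Red marks an adjusted p under 0.05. CD109, CD82, CD300A and CD47 are red to the right of 0 for pomalidomide, CD9 is red to the left of 0 for filanesib, and no gene is red for dexamethasone.

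Filanesib lowered 1 member, the tetraspanin CD9, on average over backgrounds. CD9 (probe set 16747184) associates with integrins and with adhesion receptors in the membrane. It lay at 5.63, 5.78 and 5.65 in the triple combination and at 6.21, 6.23 and 6.18 with pomalidomide plus dexamethasone. It lay at 5.96, 5.97 and 5.92 with filanesib plus pomalidomide and at 6.62, 6.40 and 6.52 with pomalidomide alone. In both pairs every array with filanesib was below every array without. Where pomalidomide was absent the groups overlapped: control arrays lay at 6.27, 6.01 and 6.28 and filanesib arrays at 6.37, 6.15 and 6.21. With dexamethasone they lay at 6.24, 6.10 and 5.76, and with filanesib plus dexamethasone at 5.77, 6.07 and 6.06. The average fall was -0.27 ± 0.06 (limma adjusted p = 0.0195), the mean of -0.56 beside pomalidomide, -0.52 beside pomalidomide plus dexamethasone, -0.06 beside dexamethasone and 0.06 for filanesib alone. The call was kept in all 24 omissions of 1 array (adjusted p up to 0.0476). It was lost when every probe set was tested (adjusted p = 0.0597) and without replicates 1 and 3 of pomalidomide alone (-0.24 ± 0.07, adjusted p = 0.0851). One of 53 members is 1.89%, and 1.4% of all genes were called for filanesib, 1.25% higher and 0.148% lower. At an unadjusted p under 0.05, limma gave 7 members (13.2%, against 11.7% of all genes), 6 of them lower (11.3% against 4.4%). The pericyte marker RGS5 rose with filanesib on average, by 0.27 ± 0.06 (limma adjusted p = 0.0236). Its arrays lay at 3.48 to 3.65 with pomalidomide alone and at 3.999 to 4.25 with filanesib plus pomalidomide. In control they lay at 3.61 to 3.75 and with filanesib alone at 3.81 to 3.95. The groups overlapped beside dexamethasone (3.45 to 3.93 without and 3.84 to 4.03 with filanesib). They also overlapped beside pomalidomide plus dexamethasone (3.58 to 3.97 without and 3.82 to 4.05 with it). DCN and LUM, the other measured markers of that list, did not pass. The part of such cells in the values of CD9 was not tested.

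CD53, a tetraspanin of leukocytes (probe set 16668582), had the next smallest p. Its levels were 9.98, 9.96 and 9.94 in the triple combination against 10.49, 10.37 and 10.52 with pomalidomide plus dexamethasone. Beside pomalidomide they were 10.23, 10.05 and 10.16 against 10.56, 10.30 and 10.27. Both pairs of groups were separate, whereas differences without pomalidomide were small, -0.002 with no other drug and -0.10 beside dexamethasone. The average effect of -0.21 ± 0.06 did not pass (limma adjusted p = 0.0657). It passed without replicate 3 of dexamethasone, without replicates 2 or 3 of pomalidomide, without replicate 2 of filanesib plus dexamethasone (adjusted p from 0.0348), and after dim genes were left out (adjusted p = 0.043).

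CD86, which costimulates T cells through CD28 (probe set 16944618), had an average effect of -0.19 ± 0.07 and the checkpoint molecule B7-H3, CD276 (probe set 16802854), of -0.19 ± 0.08. Neither passed (limma adjusted p = 0.26 and 0.3853). CD86 was at 8.00, 8.01 and 7.94 with filanesib alone, above the control arrays at 7.48, 7.74 and 7.92. Beside dexamethasone the order was the opposite, at 7.47, 7.68 and 7.74 with filanesib and 7.85, 8.19 and 7.93 without. CD276 was at 6.72, 6.55 and 6.44 in the triple combination and at 7.44, 7.02 and 7.03 with pomalidomide plus dexamethasone, while its arrays overlapped in the other 3 backgrounds. CD101, an immunoglobulin family receptor of myeloid and T cells, changed by -0.19 ± 0.08 (adjusted p = 0.3072), from a mean of 3.21 without to 3.02 with the drug. Of the 53 members 38 (71.7%, against 50.8% of all genes) had a negative average effect of filanesib, with a median of -0.03 against -0.0019 over all genes. Without replicates 1 and 3 of pomalidomide alone 31 did, and the medians were -0.0047 and -0.0040. With all arrays, the average effect of dexamethasone was likewise negative for 35 of 53 members.

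**Figure D4:**
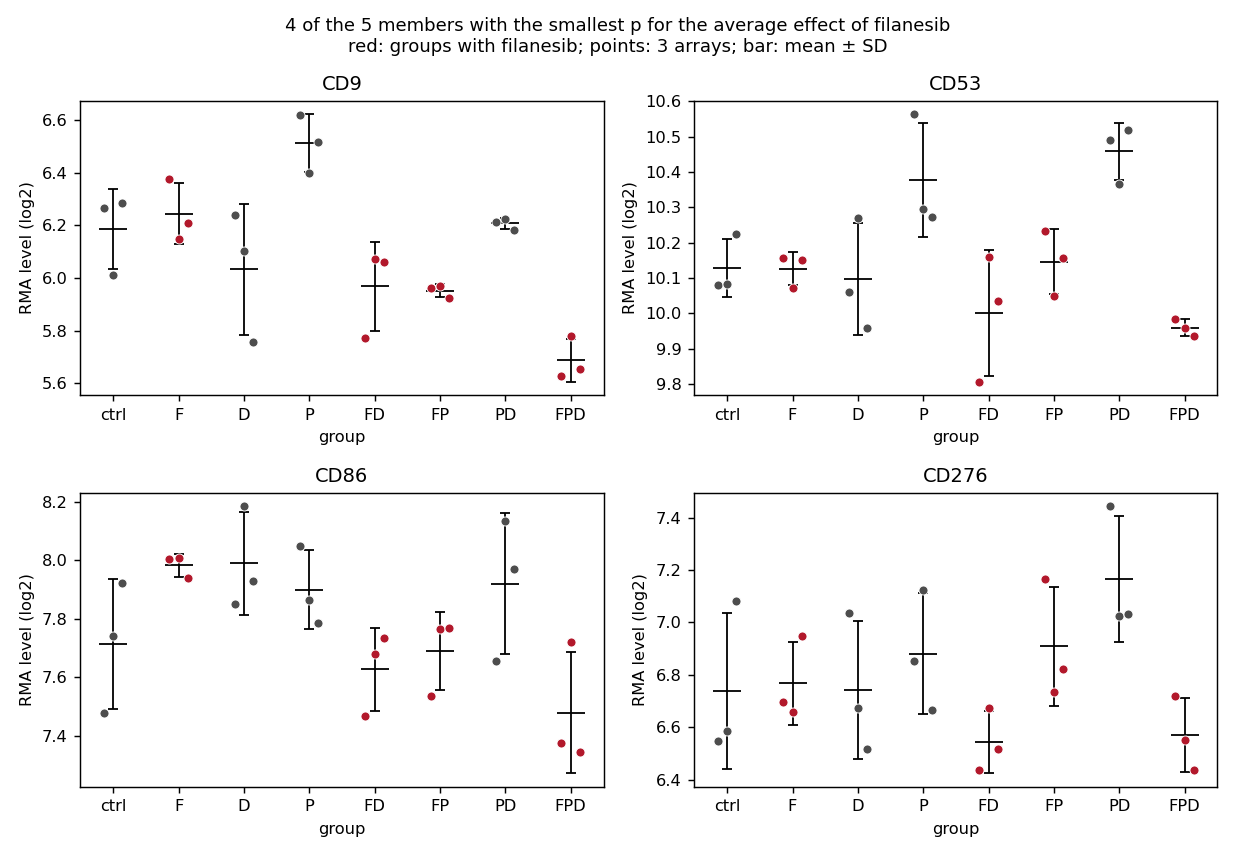
RMA level (log2) of CD9, CD53, CD86 and CD276 in the 8 groups, with a point per array and the mean ± SD of 3 arrays. Groups with filanesib are red. CD9 and CD53 are lowest in FPD, at 5.63 to 5.78 and 9.94 to 9.98, and highest in P or PD.

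The triple combination against pomalidomide plus dexamethasone asks what filanesib adds to that pair. No member passed, and 0.00672% of all genes did. With an unadjusted p under 0.05, limma gave 5 members, all lower, 9.43% of the members against 7.29% of all genes, of which 3.19% were higher and 4.1% lower. They were CD53 (-0.50 ± 0.11, adjusted p = 0.1154), CD9 (-0.52 ± 0.12, adjusted p = 0.126), CD276 (-0.60 ± 0.17, adjusted p = 0.2401), CD86 (-0.44 ± 0.14, adjusted p = 0.3495) and CD151, a tetraspanin partner of laminin-binding integrins (-0.40 ± 0.15, adjusted p = 0.4925). With array weights, CD53 (adjusted p = 0.014) and CD9 (adjusted p = 0.0234) passed. The groups did not overlap for 6 members, all lower, 11.3% of the members against 15.8% of all genes (8.53% lower).

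Tetraspanins were thus 3 of the 5 members lowest in p there. Of the 6 tetraspanins measured (CD9, CD37, CD53, CD81, CD82 and CD151), 5 had a negative difference and 0 passed, with a median of -0.36 against -0.01 over all genes. After a further quantile normalisation all 6 were negative. Other lists, given below, were also mostly negative there. These were broadly expressed antigens, which share 3 tetraspanins (6 of 7, median -0.31), and costimulatory and checkpoint ligands (6 of 8, -0.13). CD antigens under other symbols (31 of 41, -0.12), T and NK cell antigens (8 of 11, -0.08) and CD1 genes (3 of 5, -0.05) were so too. The B lineage, myeloid and endothelial lists had medians of 0.05, 0.0050 and 0.07. Over all genes 46.4% of the differences were positive. In the average effect of filanesib 1 of 6 tetraspanins fell (0.148% of all genes did), with a median of -0.08. In that of pomalidomide 1 of 6, CD82, rose (2.21% of all genes did). The median was 0.05, and -0.01 without replicates 1 and 3 of pomalidomide alone. The tetraspanin list was described by these counts and was not tested as a list.

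Whether 1 drug acts differently beside another was tested directly for each pair. No gene of 14884 passed for any of the 3 pairs, members included. For filanesib by pomalidomide, limma gave 5 members an unadjusted p under 0.05 (9.43%, against 6.69% of all genes), all negative, so that the effect of each drug was lower with the other present. CD9 differed by -0.54 ± 0.12 (unadjusted p = 1.75e-04, adjusted p = 0.3416), CD47 by -0.36 ± 0.12, CD53 by -0.32 ± 0.11, the adhesion ligand CD58 by -0.41 ± 0.16 and the lipid-presenting CD1D by -0.30 ± 0.12, with adjusted p from 0.3416 to 0.6742. These values were -0.48, -0.25, -0.27, -0.38 and -0.21 without replicates 1 and 3 of pomalidomide alone. The 5 members were picked with all arrays, and members outside them are not given without those 2 arrays. For filanesib by dexamethasone 2 members had an unadjusted p under 0.05 in limma (3.77% against 4.34% of all genes), CD86 (-0.43 ± 0.14) and CD276 (-0.43 ± 0.17). For pomalidomide by dexamethasone 3 did (5.66% against 5.52%), the dendritic lectin CD209 (-0.42 ± 0.18), the haemoglobin scavenger receptor CD163 (-0.29 ± 0.12) and CD93, a surface lectin-like protein of endothelial and myeloid cells (-0.29 ± 0.13). Without the same 2 arrays CD209 was at -0.22 ± 0.19, CD163 at -0.22 ± 0.14, CD93 at -0.31 ± 0.15, CD86 at -0.45 ± 0.16 and CD276 at -0.30 ± 0.18.

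**Figure D5:**
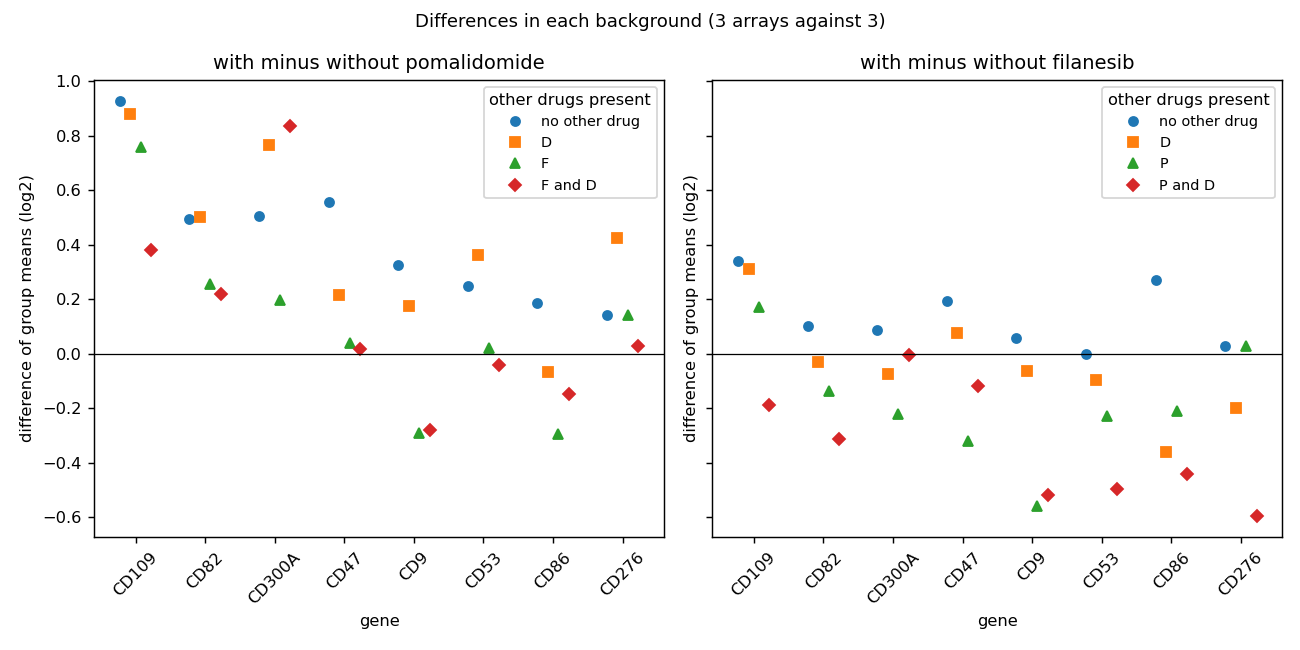
Differences of group means (log2, 3 arrays against 3) with minus without pomalidomide (left) and filanesib (right), for 8 members, with a symbol for each combination of the other drugs. CD109 and CD82 lie above 0 in each background of pomalidomide. CD9 lies at 0.32 and 0.17 without and at -0.29 and -0.28 with filanesib.

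Each treatment was also set against the 3 control arrays, which these 7 comparisons share. For filanesib alone 0 members were called, as were 0% of all genes, and none had an unadjusted p under 0.05 in limma, against 3.94% of all genes (2.24% higher and 1.7% lower). The smallest p were those of CD86 (0.27 ± 0.14), CD300C (0.24 ± 0.13) and CD58 (0.28 ± 0.16), each with an adjusted p of 0.9991. For dexamethasone alone 0 members were called and 0.00672% of all genes. An unadjusted p under 0.05 was given to 3 members (2 higher, 1 lower, together 5.66%) against 3.9% of all genes (1.4% higher and 2.51% lower). They were CD93 (0.31 ± 0.13), CD300C (0.29 ± 0.13) and CD247 (-0.23 ± 0.11), none of which passed (adjusted p of 0.9998 each in limma). Single agents other than pomalidomide thus left no called member.

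For pomalidomide alone, 11 members had an unadjusted p under 0.05 in limma (20.8%, against 16.5% of all genes), all 11 higher, while 5.54% of all genes were higher at that level and 11% lower. Without replicates 1 and 3 of that group 5 members were, 4 higher and 1 lower (9.43%, against 8.62% of all genes), and none was called. CD47, described above, was the member called. CD109 (0.93 ± 0.29, adjusted p = 0.0965) and CD82 (0.49 ± 0.15, adjusted p = 0.0975) came next and passed without replicate 2 of pomalidomide (adjusted p of 0.0383 and 0.0499). With replicates 1 and 3 left out instead, CD109 was at 0.53 ± 0.38 (adjusted p = 0.7662) and CD82 at 0.33 ± 0.21 (adjusted p = 0.733). The omission of replicate 2 raised the count of called members to 4.

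For the pairs no member passed. The shares of all genes called were 0% for filanesib plus dexamethasone, 0.141% for filanesib plus pomalidomide (0.0873% higher and 0.0537% lower) and 0.161% for pomalidomide plus dexamethasone (0.0941% higher and 0.0672% lower). Filanesib plus dexamethasone had 1 member with an unadjusted p under 0.05 in limma, CD247 (-0.28 ± 0.11), against 6.03% of all genes (2.51% higher and 3.52% lower). CD1A (0.38 ± 0.20) and CD9 (-0.22 ± 0.12) came next. Filanesib plus pomalidomide had 6, of which 4 were higher (11.3% against 7.6% of all genes, 3.65% higher and 3.95% lower), led by CD109 at 1.10 ± 0.29 (2.15-fold, adjusted p = 0.1545), CD274 at 0.46 ± 0.15 (adjusted p = 0.3388) and CD4 at -0.36 ± 0.12 (adjusted p = 0.3633). With array weights CD109 passed (adjusted p = 0.0221). Its second probe set was at -0.02 ± 0.15 in this comparison, and the mean of both at 0.54 ± 0.19 (adjusted p = 0.3551). Pomalidomide plus dexamethasone had 8, of which 6 were higher (15.1% against 8.3% of all genes, 3.98% higher and 4.32% lower), led by CD53 (0.33 ± 0.11), CD82 (0.46 ± 0.15) and CD47 (0.34 ± 0.12), with adjusted p of 0.3306 to 0.3662.

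For the triple combination no member was called, against 0.255% of all genes (0.0739% higher and 0.181% lower), and 4 members had an unadjusted p under 0.05 in limma (7.55% against 10.6% of all genes, 4.41% higher and 6.19% lower), all lower. CD9 fell short of the threshold at -0.50 ± 0.12 (adjusted p = 0.0739) and passed without replicate 3 of dexamethasone (adjusted p = 0.043) and with array weights (adjusted p = 0.0121). CD151 (-0.36 ± 0.15) and CD320, the receptor that takes up vitamin B12 bound to transcobalamin (-0.47 ± 0.21), followed with adjusted p of 0.3872 and 0.4085.

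By role, calls were few in each list. Of 11 B lineage antigens measured (CD22, CD24, CD27, CD37, CD52, CD53, CD69, CD70, CD72, CD83 and CD84) 0 passed for any of the 3 average effects. Of 11 T and NK cell antigens (CD2, CD4, CD5, CD6, CD7, CD8A, CD8B, CD96, CD160, CD226 and CD247) 0 did. The summed level of the 5 measured T and NK cell markers lay at 27.0 to 27.1 in control and at 25.5 to 26.7 in the 4 groups with pomalidomide, at 25.6 to 26.7 with filanesib plus dexamethasone and at 26.5 to 26.9 with filanesib alone. These all lay below control, and dexamethasone alone (26.5 to 27.4) overlapped it. None of these markers passed, and their part in the values of the T cell antigens was not tested. Of 10 myeloid and dendritic antigens (CD14, CD36, CD86, CD101, CD163, CD177, CD209, CD300A, CD300C and CD300E) 1 rose with pomalidomide, CD300A. Of 5 CD1 genes (CD1A to CD1E) 0 passed. Of 8 costimulatory and checkpoint ligands (CD47, CD58, CD70, CD80, CD86, CD200, CD274 and CD276) 1 rose with pomalidomide, CD47, with a median of -0.04, and 7 of 8 had a negative average effect of filanesib (50.8% of all genes did), of which 0 passed. The count was 5 of 8 without replicates 1 and 3 of pomalidomide alone. Of 3 endothelial and stromal antigens (CD34, CD93 and CD109) 1 rose, CD109. Of 7 broadly expressed antigens (CD47, CD58, CD81, CD82, CD99, CD151 and CD320) 2 rose, and the listed complement regulators were not measured by a named probe set. Beside these counts of rises with pomalidomide, 2.21% of all genes rose. Without replicates 1 and 3 of pomalidomide alone the average rise of CD47 was 0.15 instead of 0.21, and that of CD300A 0.43 instead of 0.58.

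Surface antigens that have a CD number but another gene symbol were counted beside the members, again for the average effects. Of 41 such genes measured among 66 listed, 6 rose and 2 fell with pomalidomide, with a median of 0.01. Over all genes 2.21% rose and 2.65% fell, with a median of -0.0062. The rises were those of the neutral endopeptidase CD10, MME (1.05 ± 0.21, limma adjusted p = 0.0042), the chemokine receptor CXCR3 (0.56 ± 0.11), the adhesion ligand ICAM1 (0.45 ± 0.12), the endotoxin receptor TLR4 (0.40 ± 0.06, adjusted p = 1.11e-04), the interferon gamma receptor IFNGR1 (0.27 ± 0.07) and tetherin, BST2 (0.26 ± 0.07). The complement receptor CR2 fell by 0.56 ± 0.09 (adjusted p = 7.68e-04) and ICAM3 by 0.23 ± 0.06. BST2 did not pass after a further quantile normalisation. Without replicates 1 and 3 of pomalidomide alone, 3 rose (CXCR3, MME and TLR4) and the same 2 fell. For filanesib and for dexamethasone 0 of 41 passed, and LY9 passed for filanesib after a further quantile normalisation. The difference in share between these genes and the members was not tested.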

How the data were processed

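Values are log2 levels per probe set that the authors deposited after RMA (background correction, quantile normalisation and probe summary) per the submitters' processing notes, which name Affymetrix Expression Console. Its version is not given in the sources used here. Quantile normalisation hides changes shared by most genes. The labels name the mouse as organism, but the probe table (platform annotation) names human genes. It gave 1 symbol to 14884 genes.

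limma 3.58.1 in R 4.3.3 was fitted to all 24 arrays with a mean per group (16 residual degrees of freedom), eBayes, two-sided p and Benjamini-Hochberg adjustment over all genes at 0.05, in 14 comparisons. Precision is limited by how few arrays each group holds. The script was tested on simulated data.

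The members and lists were chosen with earlier results of these data known. Named are called members, the 5 (average effects, FPD against PD) or 3 (against control) smallest p, and 14 genes of interest, of which 9 were measured. Genes named outside that rule, such as CD5L, were chosen after their values were seen. Alternatives are given in the closing section. A planned look at promoter sequences was not made, since human ones were not used here.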

Additional observations from a re-analysis of the deposited data

Results flagged for a closer look

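In 5 of the named members there was a drug whose arrays lay apart from those without it, 3 against 3, higher on 1 background and lower on another. With CD37, a member outside the naming rule, 6 of 53 members met this (11.3%, against 6.79% of all genes). The difference between those 2 backgrounds was not tested on its own. The drug pair averaged over the third drug was, and limma called no gene for it. With pomalidomide CD9 differed by 0.32 with no other drug and by -0.29 beside filanesib, and CD58 by 0.34 and -0.43. With filanesib CD86 differed by 0.27 with no other drug, by -0.36 beside dexamethasone and by -0.21 beside pomalidomide. CD300C differed with filanesib by 0.24 with no other drug and by -0.12 beside pomalidomide, and with pomalidomide by 0.15 with no other drug, -0.41 beside dexamethasone and -0.22 beside filanesib. CD151 differed with dexamethasone by 0.20 beside pomalidomide and by -0.21 beside filanesib plus pomalidomide. Each group holds 3 arrays, a size at which no test of single outlying arrays was made.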

How the results depend on the processing

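Without a called member in the main analysis, filanesib, dexamethasone, filanesib plus dexamethasone and pomalidomide plus dexamethasone against control, the average effect of dexamethasone and the 3 drug pairs had 0 under each alternative. The count for the average effect of filanesib (1) was 2 after dim genes were left out, with array weights and with a trended and robust prior, and 0 when every probe set was tested or without replicates 1 and 3 of pomalidomide alone (a choice made after seeing the data). For pomalidomide alone (1) it was 0 with array weights, when only the compared groups were fitted and without those 2 arrays. For the average effect of pomalidomide (4) it was 2 when every probe set was tested 6 with array weights and 3 without those 2 arrays. Array weights gave 1 for filanesib plus pomalidomide, 1 for the triple combination against control and 2 for the triple combination against pomalidomide plus dexamethasone (each 0 in the main analysis). In omissions of 1 array the counts ranged from 0 to 4 for pomalidomide alone, 0 to 1 for the triple combination, 1 to 2 for the average effect of filanesib and 2 to 6 for that of pomalidomide. Leaving out replicate 2 of pomalidomide gave the 4 and replicate 3 of dexamethasone the 1. The cause was not tested. CD109 and CD82 kept their average call for pomalidomide under all alternatives run. CD52 turned to -0.012 for pomalidomide without the 2 arrays, the 1 change of sign among 1529 values of named genes. With the replicate block the average effect of pomalidomide had 3 called members (CD47 lost, adjusted p = 0.0518), and no other call of a member changed. The labels do not pair equal numbers: deviations of arrays with the same number had a median correlation of -0.02, with 17 of 84 pairs over 0.1. RMA values carry no detection call, so changes of the 36 dim members may be understated.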

Other observations

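Chosen after their values were seen, some members had 1 array of a group away from the other 2. CD22, an inhibitory receptor of B cells, lay at 4.06 on replicate 1 of pomalidomide alone and at 3.34 and 3.32 on the other 2. CD226, an activating receptor of T and NK cells, lay at 3.04 on replicate 3 of that group and at 3.98 and 3.83 on the others. CD70 lay at 7.30 on replicate 1 of pomalidomide plus dexamethasone and at 8.13 and 7.97 on the others. CD99 ranged from 7.70 to 8.70 within dexamethasone and from 8.02 to 9.10 within pomalidomide alone.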
